A study of Mus musculus with 12 samples.

Results

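The 78 genes described here encode proteins of the mitochondrial ribosome. They were taken from a table of 21492 genes as every protein-coding gene whose symbol begins with Mrpl or Mrps and a digit and whose value reached 10 in at least 3 of 12 libraries. These were 49 Mrpl genes, named for the large subunit, and 29 Mrps genes, named for the small subunit. They are all 78 such genes of the mouse annotation used (GENCODE M21), so the level rule left none out. The gene nearest to that limit was Mrpl23, with a single library under 10 (8.38 in WT input number 2), whereas the lowest value of any other member was 118.

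The striatum was taken from males of the C57BL/6J strain, aged 70 days after birth. Synaptosomes, which are pinched-off nerve terminals with adhering postsynaptic membrane, gave an input RNA, and the polyribosomes within them gave a polysome RNA. Each was taken from wild-type mice (WT) and from mice carrying a Shank3 transgene (TG), with 3 libraries in each of 4 groups; the labels name no treatment. The labels give neither the promoter of the transgene nor whether mice were pooled, nor whether each library stands for other animals, so p-values describe the spread between these samples. A value is the authors' normalized read estimate for a gene, and a log2 difference is taken on log2(value + 1).

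Mitochondria translate the few proteins encoded in their own DNA, all of them subunits of oxidative phosphorylation complexes, on a ribosome of their own. Its ribosomal RNAs are transcribed from mitochondrial DNA, while every one of its proteins is encoded in the nucleus, translated by cytosolic ribosomes and imported. Nerve terminals hold many mitochondria, and transcripts for mitochondrial proteins are among those known to be translated near them. Messengers encoded in mitochondrial DNA are translated by the mitochondrial ribosome instead. Some names do not match a protein's place in the particle: Mrps30 and Mrps18a lie in the large subunit, and Mrps36 is now regarded as a subunit of the alpha-ketoglutarate dehydrogenase complex.

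Shank3, the gene of the transgene and a scaffold of the excitatory synapse, was read first as the check of the genotype labels. Its values were 2121, 4162 and 5858 in WT input and 5456, 17500.5 and 14107 in TG input. The polysome libraries held 1501, 3702 and 5848 in WT and 5012, 12626 and 12252 with the transgene. Shank3 was higher in the TG library of each number in both RNAs, but the difference did not pass the test across all genes (log2 difference 1.57 ± 0.49 (SE) in input, adjusted p = 1.00, limma). With the library number as a block it passed in polysome RNA (1.53, adjusted p = 0.0205) and not in input (adjusted p = 0.0631). The depth, a rough estimate from the spacing of low values, was 62 M to 85.9 M reads for input and 76.4 M to 102 M reads for polysome libraries. Mitochondrial ribosomal RNA took 39.1% to 46.8% of the input values and 23.1% to 34.0% of the polysome values. Of 10 markers of medium spiny neurons, the principal striatal cells, all were above 10 in every library, and so were all markers of astrocytes (6), oligodendrocytes (6), microglia (6), endothelium (5) and blood (5).

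The start regions of 6 members are shown because the results below turn on these genes, which are 3 of the largest rises, the rise with the smallest adjusted p in TG, and the 2 members with the lowest difference between polysome and input RNA. Each runs from 12 bases before the start codon, which is in capitals, along the principal transcript of the GENCODE M21 annotation on GRCm38.
Mrps14: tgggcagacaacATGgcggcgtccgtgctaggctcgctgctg
Mrpl28: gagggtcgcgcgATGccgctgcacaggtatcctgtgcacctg
Mrps16: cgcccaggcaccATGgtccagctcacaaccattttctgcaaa
Mrpl3: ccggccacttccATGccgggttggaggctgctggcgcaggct
Mrps31: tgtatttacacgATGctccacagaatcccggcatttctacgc
Mrps15: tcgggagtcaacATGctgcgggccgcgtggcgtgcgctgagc
Ribosomes prefer a purine 3 bases before the start codon and a G just after it. A purine stood at that place in 74 of 78 members (94.9%) against 86.4% of all protein-coding genes tested, and in all 29 Mrps genes. A G followed the start codon in 55 members (70.5% against 52.2%). Both features were present in 52 members (66.7% against 44.9%). Of the 6 genes shown, Mrps14 and Mrps16 carry both, while Mrpl3 carries neither. Mrpl14, Mrpl2 and Mrpl30 were the other members without the purine.

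Members were short genes. The principal transcript had a median length of 1302 nt and a coding length of 582 nt, against 3046 and 1392 nt in all protein-coding genes tested. Mrpl and Mrps did not differ much in this respect, with median coding lengths of 576 and 588 nt. A head-to-head neighbour was a protein-coding gene on the other strand that started within 1000 bases, at or upstream of the gene's own start. Pairs that overlapped at their starts were not counted. Such a neighbour was present in 18 members (23.1% against 9.24%). Among the closest pairs were Mrpl54 with Apba3 at 26 bases, Mrps34 with Eme2 at 29 and Mrpl49 with Fau at 59. Mrps12, which sits at the decoding centre, starts 172 bases from Sars2, which encodes the mitochondrial seryl-tRNA synthetase.

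Promoter sequence from RefSeq (build GRCm38.p6) was matched for 69 of the 78 members. NRF1, ETS factors and YY1 are known regulators of nuclear genes for mitochondrial proteins, and SP1 binds many promoters rich in G and C. The 4 short motifs given here were searched on both strands from 250 bases before to 50 bases after the start. The NRF1 motif, GCGCA and GCGC with any base between them, was found in 13 members (18.8%), against 9.56% of the promoters of tested protein-coding genes and 4.81% of all promoters in the table. The ETS motif CCGGAAG was found in 24 (34.8%, against 16.4% and 9.17%). The YY1 motif AANATGGCG, which can overlap a start codon, was found in 11 (15.9%, against 4.72% and 2.53%). The SP1 motif GGGCGG was found in 34 (49.3%, against 62.7% and 36.0%). It was present in 65.4% of the Mrps promoters and 39.5% of the Mrpl promoters.
The 120 bases just before the start are shown for a member with each of the first 3 motifs and for Mrps31, in which none of the 4 was found in this window. Matches are in capitals on either strand. The windows are chr7:105811088-105811207 (minus strand) for Mrpl17, chr9:105053148-105053267 (plus strand) for Mrpl3, chr13:73330889-73331008 (plus strand) for Mrpl36 and chr8:22411220-22411339 (plus strand) for Mrps31.
Mrpl17: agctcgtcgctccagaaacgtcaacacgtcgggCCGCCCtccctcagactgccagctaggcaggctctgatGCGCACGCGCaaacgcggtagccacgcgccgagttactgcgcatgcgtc
Mrpl3: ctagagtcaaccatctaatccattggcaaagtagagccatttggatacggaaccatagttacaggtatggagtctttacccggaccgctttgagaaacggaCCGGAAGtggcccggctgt
Mrpl36: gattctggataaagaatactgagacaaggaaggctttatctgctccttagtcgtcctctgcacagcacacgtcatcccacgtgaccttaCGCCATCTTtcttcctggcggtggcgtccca
Mrps31: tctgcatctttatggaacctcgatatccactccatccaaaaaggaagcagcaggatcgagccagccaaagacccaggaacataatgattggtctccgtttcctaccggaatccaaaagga
The Mrpl17 match to NRF1 begins 49 bases before the start and follows a match to SP1. The ETS match in Mrpl3 begins at 19 and the YY1 match in Mrpl36 at 31 bases before it. A match is a run of letters and was not tested as a binding site.

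Levels per kb of exonic length in WT input ranged widely between members, around a median of 368 per kb. Highest was Mrps21 at 2738 ± 597 per kb (mean ± SD, n = 3), followed by Mrpl41 (1515 ± 292), Mrps33 (1271 ± 448), Mrps12 (1131 ± 133) and Mrpl34 (969 ± 251). Among these 5, the ranges of mean ± SD overlapped between neighbours, except that Mrps21 stood above the rest. Lowest were Mrpl23 (13 ± 10 per kb), Mrps10 (21.9 ± 9.45), Mrps35 (85.2 ± 17.6), Mrpl33 (95.7 ± 33.0) and Mrpl17 (104 ± 40.0). The order at the low end depends on which transcript length is used: Mrpl33 was 75th of 78 by exonic length and 7th by the length of its principal transcript.

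Some members cannot be separated from near-identical copies. The principal transcript of Mrpl23 shares 77.0% of its 31-base sequences with the pseudogene Mrpl23-ps1, and that of Mrpl53, a protein of the large subunit stalk base, shares all of them with the gene model Gm42688. Mrpl23 had values of 102, 8.38 and 80.5 in WT input, while Mrpl23-ps1 had 976, 1219.7 and 755. The sum of the Mrpl23 pair was 1077, 1228 and 836 in WT input and 1414, 1479.8 and 1486 in WT polysome RNA, so that the groups did not overlap, nor did they in TG. Of the principal transcripts of all 78 members, 33 shared no such sequence with another gene and 58 shared under 10%. Over all transcripts of a gene some of these 33 did share sequence, such as Mrpl24 (4.12%).

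The spread between libraries of a group differed between members. The SD of log2 values within groups had a median of 0.26 over members and 0.31 over all genes tested. Mrpl39 (0.14), Mrps18b (0.14) and Mrps2 (0.14) varied least. Mrpl23 (1.08), Mrps14 (0.56) and Mrpl52 (0.54) varied most. For Mrpl52 the spread lay in the input libraries, with 536, 391 and 214 in WT input against 522, 511 and 510.0 in WT polysome RNA.

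Mitoribosomal protein messengers were higher in polysome than in input RNA. In WT, 23 of 78 members rose and 0 fell (adjusted p under 0.05, limma), where 5.36% of all 16962 genes tested rose and 8.59% fell. The log2 difference was above 0 in 71 members (51.8% of all genes), with a median of 0.50 (0.03 over all genes). Input and polysome libraries did not overlap in 46 members that were higher and in 1 that was lower, Mrps31 (17.7% and 18.5% of all genes). At an unadjusted p under 0.05 there were 45 members (30.2% of all genes), of which only Mrps31 was lower. The plot of every member's difference shows this displacement in both families.

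The size of the WT count depended on single libraries and on settings, although it held no fall in any of them except the blocked fits. It was 13, 15 and 2 without WT input numbers 1, 2 and 3, where 4.35%, 2.95% and 0.753% of all genes rose. It was 7, 2 and 5 without WT polysome numbers 1, 2 and 3 (2.88%, 1.93% and 1.35% of all genes). It was 15 without TG polysome number 1, whose spread enters the fit (3.64%). The share of all genes called higher was thus also below its 5.36% in each of these fits. The count was 12 without a variance trend (3.94% of all genes) and 12 with the trend on exonic length removed, where 4.24% of all genes rose. For polysome against input, here and below, the block was the library number within each genotype. With the library number as a block in this way, 38 members passed (29.8% of all genes). Of these 37 rose and 1, Mrps31, fell (13.9% and 15.9%). With number 2 left out of that fit no member was called (0.390% of all genes rose).

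**Figure D1:**
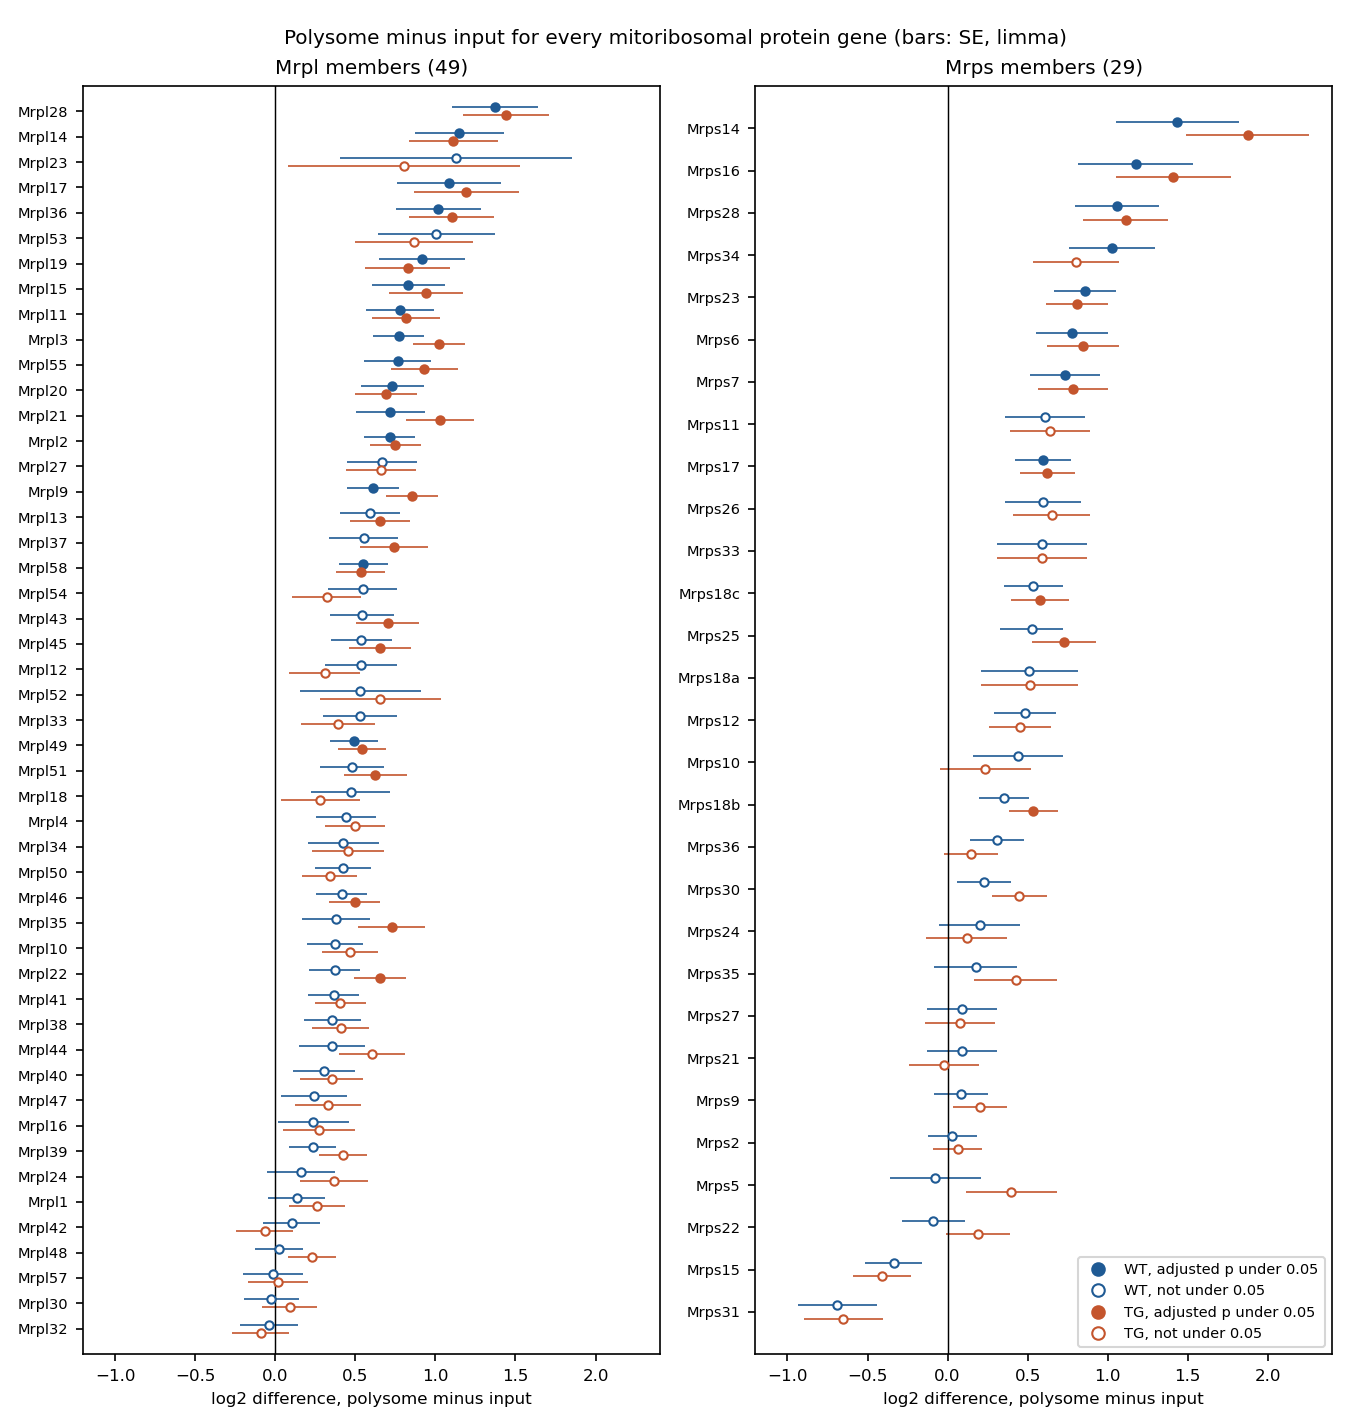
Log2 difference of polysome minus input (horizontal axis) for each of the 49 Mrpl and 29 Mrps genes, WT in blue and TG in orange, with the standard error as a bar and filled points where the adjusted p was under 0.05. All filled points lie to the right of 0, with Mrpl28 at the top of the Mrpl panel (1.37 in WT), Mrps14 at the top of the Mrps panel (1.44) and Mrps31 at the bottom (-0.69).

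In TG mice, 33 of 78 members rose and 0 fell (8.19% and 9.86% of all genes tested). The difference was above 0 in 73 members (51.8% of all genes) and had a median of 0.54 (0.03 over all genes). Input and polysome libraries did not overlap in 46 higher and 2 lower members (17.6% and 18.0% of all genes), the lower being Mrps31 and Mrps15. Of 48 members with an unadjusted p under 0.05 (32.8% of all genes), those lower were again Mrps31 and Mrps15. The count was 14 and 8 without TG input numbers 2 and 3 (3.74% and 3.04% of all genes rose). It was 7 and 11 without TG polysome numbers 1 and 3 (3.12% and 2.79%), and 16 in a fit of the 6 TG libraries alone (3.85%). With the trend on exonic length removed, 21 rose (6.86% of all genes) and 1, Mrps15, fell. With the library number as a block 46 rose and 1, Mrps31, fell (16.7% and 16.6%). WT and TG have no libraries in common, though their tests share 1 estimate of spread. Libraries with the same number also deviated together across groups, so the calls in WT and TG are not independent. The members called in both were 22, which is 95.7% of the WT calls and 66.7% of the TG calls. This overlap was not counted over all genes, so it is not read as particular to the members. The member called in WT alone was Mrps34, and it stood at 0.80 ± 0.27 in TG (adjusted p = 0.0558). That 11 were called in TG alone does not by itself show a difference between genotypes, which was tested as an interaction and is given further on.

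Mrps14, a small subunit protein with a counterpart in bacteria, had the largest difference of all members. Its values were 851, 576 and 340.5 in WT input and 1667, 1509 and 1316 in WT polysome RNA. In TG they were 824, 401 and 245 in input and 1681, 1651 and 1443 in polysome RNA. All polysome libraries were above all input libraries, and input number 3 was the lowest in both genotypes. Mrps14 rose 2.70-fold in WT (log2 difference 1.44 ± 0.38 (SE), adjusted p = 0.0286) and 3.66-fold in TG (1.87 ± 0.38, adjusted p = 0.00851).

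Mrpl28, a large subunit protein that also has a bacterial counterpart, lay at 1207, 1070.0 and 787 in WT input and 2522, 2784 and 2513 in WT polysome RNA. The TG values were 1558, 903 and 641 in input and 2780.2, 2319.8 and 2790.2 in polysome RNA. The polysome values were close to each other, and the input values spread more widely, with number 3 again lowest. Mrpl28 rose by 1.37 ± 0.27 in WT (adjusted p = 0.00834) and 1.44 ± 0.27 in TG (adjusted p = 0.00592). It is located at chr17:26123500-26126613 (GRCm38) and shares no 31-base sequence with another gene.

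Mrps16, a small subunit protein in which a mutation causes a human mitochondrial disease, gave 567, 504 and 250.2 in WT input and 944, 987 and 884 in WT polysome RNA. In TG the values were 712, 318 and 246 in input and 1169.8, 955 and 940.5 in polysome RNA. Groups did not overlap in either genotype. The rise was 1.17 ± 0.36 in WT (adjusted p = 0.0476) and 1.41 ± 0.36 in TG (adjusted p = 0.0201).

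Mrpl3, a large subunit protein that reaches towards the peptidyl transferase centre, had the smallest adjusted p of any member in TG and is described for that, after its values were seen. WT values were 2302, 2293 and 2148 in input and 3944, 4665 and 3066 in polysome RNA. TG values were 2131, 2100.1 and 1916 in input and 4236, 4431 and 3830.4 in polysome RNA. The input libraries lay within a narrow range, in contrast to those of Mrps14 and Mrps16. Mrpl3 rose by 0.77 ± 0.16 in WT (adjusted p = 0.0108) and by 1.02 ± 0.16 in TG (adjusted p = 0.00275).

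**Figure D2:**
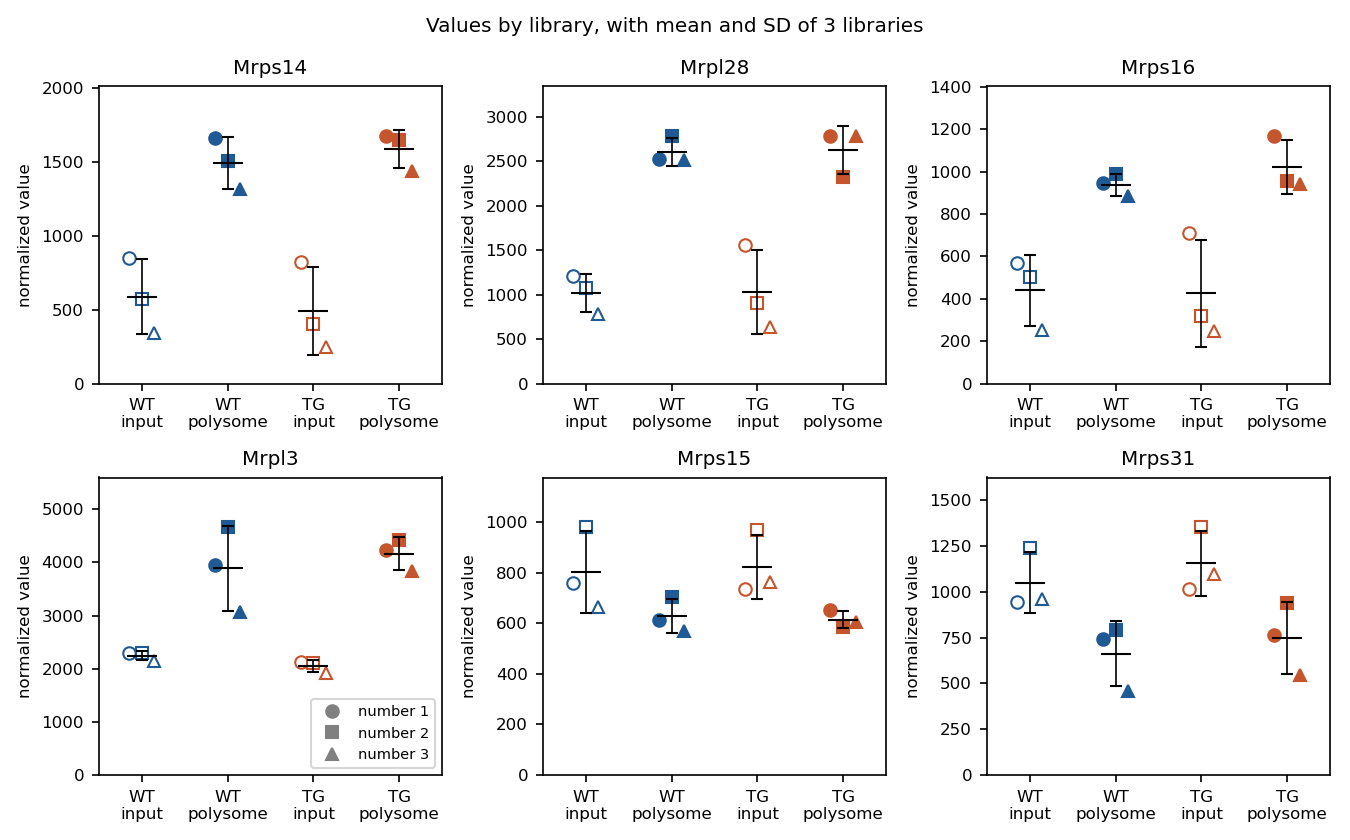
Normalized value (vertical axis) of 6 members in each library, WT in blue and TG in orange, open symbols for input and filled for polysome, with the symbol shape giving the library number and black marks the mean and SD of 3 libraries. In the panels of Mrps14, Mrpl28, Mrps16 and Mrpl3 every polysome point lies above every input point, and in that of Mrps31 the order is the reverse within each genotype.

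Further large rises were those of Mrpl14, Mrpl17, Mrps28 and Mrpl36, all of which have bacterial counterparts, and all passed in both genotypes. Mrpl14, the protein at which the assembly factor encoded by Malsu1 docks, went from 196, 260.4 and 136 to 392, 479 and 409 in WT (log2 difference 1.15 ± 0.28). Mrpl17 went from 1087, 798 and 479 to 1488, 1725 and 1551 (1.09 ± 0.33). Mrps28 went from 291, 337 and 228 to 535, 724 and 526 (1.06 ± 0.26). In each of these the groups did not overlap. Mrpl36 went from 596, 705 and 424 to 1099, 1251 and 1081 (1.02 ± 0.27). Mrps34, a small subunit protein without a bacterial counterpart, went from 594, 481 and 272 to 876, 985 and 765 (1.03 ± 0.27, adjusted p = 0.0261). Mrpl21, a large subunit protein, rose by 0.72 ± 0.21 in WT and 1.03 ± 0.21 in TG. Of the 9 members chosen for the size of their rise in either genotype, which are those described here but Mrpl3, 8 did not pass in WT without WT input number 3, WT polysome number 2 or WT polysome number 3, while Mrpl28 passed without any single library.

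Mrps31, a small subunit protein found only in mitochondrial ribosomes, had the lowest difference of all members in both genotypes. It was 1 of 7 members below 0 in WT and of 5 in TG. It gave 945, 1240.5 and 962 in WT input and 739.8, 789 and 459.7 in WT polysome RNA. In TG it gave 1016, 1353 and 1096 in input and 762, 936 and 543 in polysome RNA. Every polysome library was below every input library of its genotype. The difference was -0.69 ± 0.25 in WT (adjusted p = 0.0796) and -0.65 ± 0.25 in TG (adjusted p = 0.0848), neither under 0.05. With the library number as a block Mrps31 fell in both (adjusted p = 0.0175 in WT and 0.0182 in TG). Mrps15, a protein that binds the small subunit ribosomal RNA, is named here after its values were seen. It gave 735, 968 and 764 in TG input and 652, 586 and 605 in TG polysome RNA, without overlap, while its WT libraries overlapped. It stood at -0.34 ± 0.18 in WT and -0.41 ± 0.18 in TG, and did not pass with or without the block. With the trend on exonic length removed it fell in TG (-0.67, adjusted p = 0.0312).

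Mrpl and Mrps genes were compared as families. In WT, 15 of 49 Mrpl and 8 of 29 Mrps members rose (5.36% of all genes), with median log2 differences of 0.53 and 0.49. In TG, 23 Mrpl and 10 Mrps members rose (8.19% of all genes), with medians of 0.60 and 0.51. With the library number as a block 24 Mrpl and 13 Mrps members rose in WT (13.9% of all genes), and 31 and 15 in TG (16.7%). The Mrpl median was higher by 0.05 in WT, and by 0.08, 0.08 and 0.03 within numbers 1, 2 and 3. In TG it was higher by 0.09 in the fit, but by 0.03 and 0.01 in numbers 1 and 2 and lower in number 3 (-0.02). These gaps are small beside the range of single members. With the trend on exonic length removed the order turned, to -0.12 in WT and -0.10 in TG. With Mrps30 and Mrps18a counted in the large subunit and Mrps36 left out, the gap was 0.005 in WT and -0.01 in TG. The log2 medians therefore gave no stable order of the 2 families.

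Sums gave another view, because abundant members weigh more in them. Summed Mrpl values over summed Mrps values came to 1.72 to 1.82 in the 6 input libraries and 1.85 to 1.95 in the 6 polysome libraries. The ratio was higher in the polysome library than in the input library of the same number and genotype in each of the 6 pairs. Members together made up 0.0579% to 0.0773% of input values and 0.135% to 0.179% of polysome values. Without mitochondrial ribosomal RNA in the total, they made up 0.0962% to 0.145% of the input values and 0.204% to 0.245% of the polysome values. In input, the library with number 3 had the lowest sum in each genotype (62615 in WT and 59654 in TG), and Mrpl and Mrps medians were both lowest there.

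**Figure D3:**
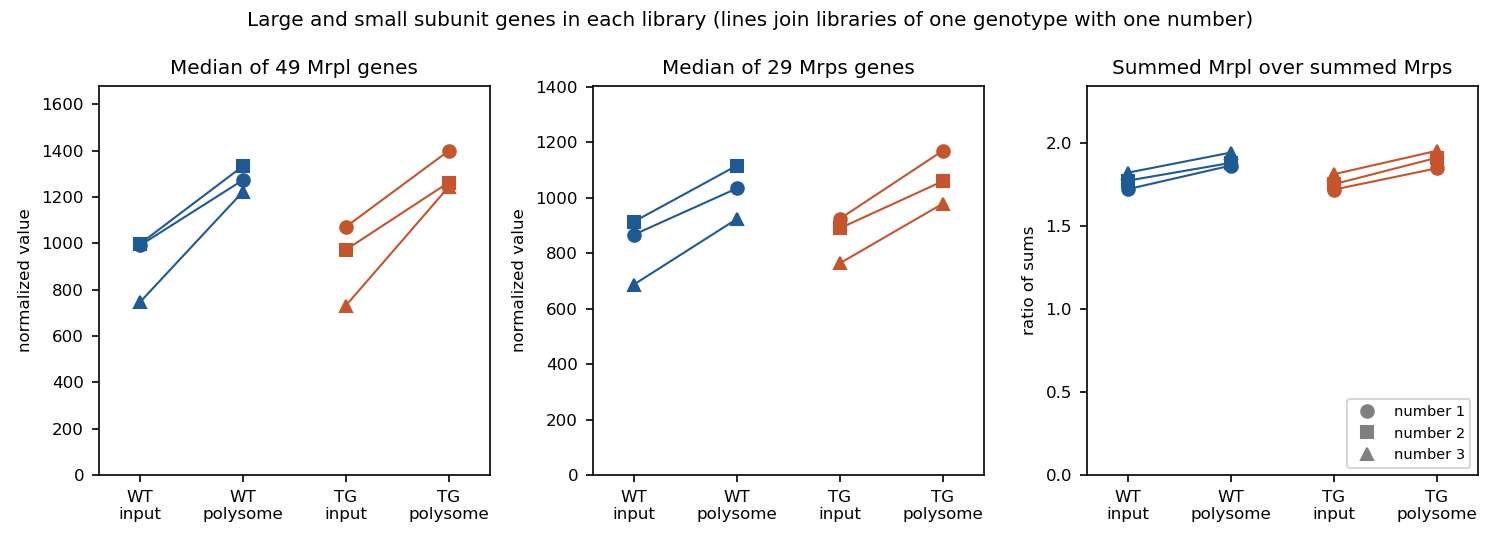
Median normalized value of the Mrpl and of the Mrps genes, and the ratio of their sums (vertical axes), in each library, with lines joining the input and polysome library of a number within WT (blue) and TG (orange). Every line rises from input to polysome, and in both families the lowest input medians are those of number 3, with Mrpl medians of 745 in WT and 730 in TG.

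Within the families, members were also grouped by whether bacterial ribosomes have a counterpart, from textbook knowledge of the particle. The share of all genes that rose was 5.36% in WT and 8.19% in TG. These classes are small, and their counts were not tested against each other. Of 29 large subunit proteins with a counterpart, 12 rose in WT and 15 in TG (medians 0.59 and 0.66). Of 19 large subunit proteins found only in mitochondrial ribosomes, 2 rose in WT and 7 in TG (medians 0.42 and 0.50). Of 17 small subunit proteins with a counterpart, 6 rose in WT and 8 in TG (medians 0.49 and 0.54). Of 9 without one, 2 rose in each genotype (medians 0.53 and 0.59). With the block the proteins found only in mitochondrial ribosomes gave 8 of 19 and 5 of 9 rises in WT (13.9% of all genes). They gave 11 and 5 in TG (16.7%). Mrps30 and Mrps18a, the large subunit proteins with Mrps names, had values of 0.23 ± 0.17 and 0.51 ± 0.30 in WT and did not pass. The other 2 members, Mrpl55 and Mrps36, were not classed and so are in none of these counts. Of these, Mrpl55 rose in both genotypes (0.77 in WT and 0.93 in TG).

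The members' difference was read beside their length, because short genes as a whole were higher in polysome RNA. Across 15024 protein-coding genes, coding length and the WT log2 difference had a Spearman rho of -0.55, as a description over genes that share the same 12 libraries. The lowest 5 of 10 bins of coding length held all members. In the shortest bin, up to 525 nt, the median WT difference was 0.43 over all genes and 0.53 over its 30 members. In the next, up to 744 nt, it was 0.36 over all genes and 0.55 over 21 members. In the third bin, up to 969 nt, it was 0.26 over all genes and 0.41 over 15 members. In the last 2 the medians lay closer, at 0.19 over all genes and 0.23 over 7 members up to 1167 nt, and at 0.06 and 0.09 (5 members) up to 1392 nt. Of the 78 members, 56 in WT and 55 in TG lay above the median of their own bin. Over the members alone, coding length and difference had a rho of -0.31 in WT and -0.14 in TG.

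**Figure D4:**
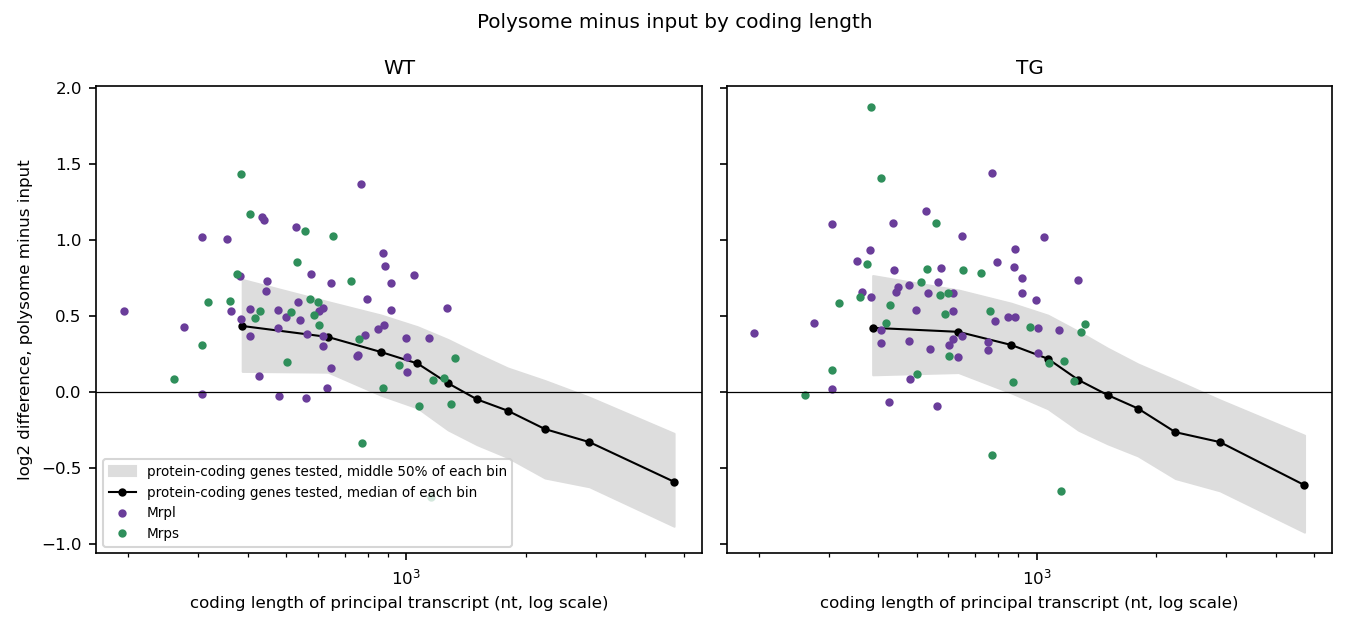
Log2 difference of polysome minus input (vertical axis) against the coding length of the principal transcript in nucleotides (horizontal log axis), in WT and TG, for Mrpl (purple) and Mrps (green) members. The black line joins the medians of 10 bins of all protein-coding genes tested and the grey band holds the middle 50% of each bin. The line falls from 0.43 in the shortest to -0.59 in the longest bin in WT, and most members lie at its left end and above it.

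The differences by number were 0.33, 0.48 and 0.65 in WT (medians over members for numbers 1, 2 and 3) and 0.46, 0.46 and 0.80 in TG. The difference was above 0 in all 3 numbers for 60 members in WT (31.5% of all genes) and 64 in TG (32.9%). Of 6 astrocyte markers 2 fell in WT, and with the library number as a block 1 rose and 2 fell in each genotype. Their summed level was 356294 to 371486 in WT input and 209987 to 332684 in WT polysome RNA, and the defining marker Gfap was never under 2984. Of 6 oligodendrocyte markers 1, Mog, rose in WT (1.01 ± 0.20), and with the block 1 other fell there. Mog was also the 1 that rose in TG, where with the block 1 rose and 2 fell. No microglial marker passed in WT and 2 of 6 rose in TG, and with the block 3 rose in each. None of the 10 markers of medium spiny neurons passed in either genotype. In each, 2 had an unadjusted p under 0.05 (limma, 30.2% of all genes in WT and 32.8% in TG). With the library number as a block, however, 3 of them rose and 2 fell in WT, and 5 rose and 2 fell in TG. Of 5 endothelial and 5 blood markers, 0 passed in WT and 1 of each rose in TG. With the block 1 of each rose in WT, and 1 endothelial and 2 blood markers rose in TG. These are bulk samples of synaptosomes, and the part of these markers in the members' difference was not tested.

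Proteins of the mitochondrial ribosome that lack an Mrpl or Mrps symbol were 5. Chchd1, a small subunit protein, went from 742, 773 and 386 in WT input to 1591, 1404 and 1298 in WT polysome RNA. It rose in WT (1.24 ± 0.30, adjusted p = 0.0188) and TG (1.03 ± 0.30). Ptcd3, a small subunit protein of the pentatricopeptide repeat family, went the other way, from 2165, 2907 and 2937 to 1994, 1694 and 1528. It fell in WT (-0.61 ± 0.18, adjusted p = 0.0377) and stood at -0.45 ± 0.18 in TG (adjusted p = 0.0929). Gadd45gip1, a large subunit protein, rose in TG (0.66 ± 0.16, adjusted p = 0.0153). Aurkaip1 (0.55 in WT) passed only with the library number as a block (adjusted p = 0.0282), and so did Gadd45gip1 in WT (adjusted p = 0.0432). Dap3 (-0.10), a small subunit protein that binds GTP, did not pass in either fit.

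The ribosomal RNAs that these proteins bind lay lower in polysome RNA. mt-Rnr1, the small subunit RNA, fell in WT (-1.54 ± 0.36, adjusted p = 0.0177) and in TG (-1.84 ± 0.36, adjusted p = 0.00744). mt-Rnr2, the large subunit RNA, stood at -1.10 ± 0.50 in WT and passed only with the block (adjusted p = 0.0238). Of the 13 messengers encoded in mitochondrial DNA, 9 fell in WT and 8 in TG (8.59% and 9.86% of all genes). In neither genotype did any rise, and the WT median was -1.63. The largest fall was that of mt-Atp8, an ATP synthase subunit (-3.34 ± 0.28).

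Genes that build and run the mitochondrial ribosome were mixed. Beside their counts, 5.36% of all genes tested rose and 8.59% fell in WT, and 8.19% and 9.86% in TG. Of 27 factors for its assembly and for processing its RNA, 6 rose and 1 fell in WT (median 0.33), and 7 rose and 1 fell in TG (median 0.45). With the block 10 rose in WT and 13 in TG (13.9% and 16.7% of all genes). Malsu1, an assembly factor of the large subunit, rose most (1.79 ± 0.26 in WT), and Dhx30, an RNA helicase, fell (-0.72 ± 0.17). Of 19 translation factors 3 rose and 2 fell in WT (median -0.01). Tsfm, the elongation factor Ts of mitochondria, rose (1.09 ± 0.24), and Lrpprc, which stabilizes mitochondrial messengers, fell (-0.90 ± 0.26). None of 20 mitochondrial aminoacyl-tRNA synthetases passed in WT, and 2 rose in TG (8.19% of all genes). In WT 3 had an unadjusted p under 0.05 (30.2% of all genes, limma) and 2 rose with the block (13.9%). Cars2, the cysteinyl-tRNA synthetase, had the smallest p in WT (0.59 ± 0.19). Among 16 genes for mitochondrial transcription and its nuclear regulators, Esrra, a nuclear receptor, rose (0.85 ± 0.23) and Polrmt, the mitochondrial RNA polymerase, fell (-1.41 ± 0.35).

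Values for the most closely related lists are given side by side with the members. Of 80 nuclear genes for subunits of oxidative phosphorylation complexes, 25 rose and 2 fell in WT (5.36% and 8.59% of all genes), with a median of 0.58. With the block 44 rose and 5 fell (13.9% and 15.9%). Atp5e, an ATP synthase subunit, rose (1.89 ± 0.46), and Ndufs1, the largest subunit of complex I, fell (-1.14 ± 0.27). Of 83 cytosolic ribosomal protein genes, 2 rose and 17 fell in WT, with a median of -0.21. In TG 3 rose and 17 fell (8.19% and 9.86% of all genes), with a median of -0.10. The list holds near-identical copies such as Rps27 and Rps27rt, which were called in opposite directions in both genotypes, so single values in it are uncertain.

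TG was then compared with WT within each RNA, which asks whether the transgene went with a change in these messengers. In input, 0 of 78 members and 0 of 16341 genes passed (limma), so the share called was 0% of all genes, and 0 members (80 of all genes) had an unadjusted p under 0.05. The median over members was -0.03, and 30 members were above 0 (47.1% of all genes). By number the median was 0.07, -0.17 and -0.09. Members with the lowest p, though not passing, were Mrpl48 (-0.18 ± 0.16), Mrpl43 (-0.24 ± 0.23), Mrpl22 (-0.19 ± 0.19) and Mrpl3 (-0.13 ± 0.13), all with an adjusted p of 1.00. Mrpl3 was the only member whose TG and WT input libraries did not overlap, at 1916 to 2131 in TG against 2148 to 2302 in WT, where such lower genes were 1.39% of all and such higher genes, of which no member was 1, were 1.23%. The difference was above 0 in all 3 numbers for 2 members, Mrpl42 and Mrps31 (9.52% of all genes).

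In polysome RNA 0 of 78 members and 0 of 16312 genes passed (0% of all genes), and 0 members (53 of all genes) had an unadjusted p under 0.05. The median was 0.04, and 45 members were above 0 (53.4% of all genes). By number it was 0.16, -0.18 and 0.09, so the pair with number 2 ran against the other 2. Smallest in p were Mrpl35 (0.21 ± 0.14), Mrps5 (0.36 ± 0.27), Mrps10 (-0.23 ± 0.18) and Mrpl47 (0.20 ± 0.17), again with an adjusted p of 1.00. Mrpl35, a large subunit protein, had 1272, 1274 and 1203 in WT polysome RNA and 1477, 1526 and 1329 in TG polysome RNA. It was 1 of 3 members, with Mrpl21 and Mrpl9, whose TG libraries all lay above the WT libraries (1.37% of all genes), while Mrps21 and Mrps36 lay below (0.999%). The difference was above 0 in all 3 numbers for 14 members (11.1% of all genes). With the library number as a block 1 gene passed, which was Shank3 (0.00613% of all genes). Leaving out single libraries turned the sign of the members' median in both RNAs, which was 0.12 in input without TG number 3 and -0.02 in polysome RNA without WT number 3.

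The interaction tested whether the difference between polysome and input RNA itself differed between genotypes. None of 78 members and none of 16962 genes passed (0% of all genes, limma), and 0 members (94 of all genes) had an unadjusted p under 0.05. The median over members was 0.05, and 54 were above 0 (54.1% of all genes). The value was 0.07, -0.002 and 0.13 by number, and 16 members were above 0 in all 3 (12% of all genes). Smallest in p were Mrpl22 (0.28 ± 0.23), Mrps5 (0.47 ± 0.40), Mrpl35 (0.35 ± 0.30) and Mrpl3 (0.25 ± 0.23). Mrps5, a small subunit protein, had 1385, 1337 and 699.9 in WT polysome RNA and 1275, 1591 and 1345 in TG polysome RNA, so that WT number 3 stood below all others. With 3 libraries a group, standard errors for single members were about as large as these differences. Changes of this size were therefore not detectable here, and larger ones could also be missed.

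**Figure D5:**
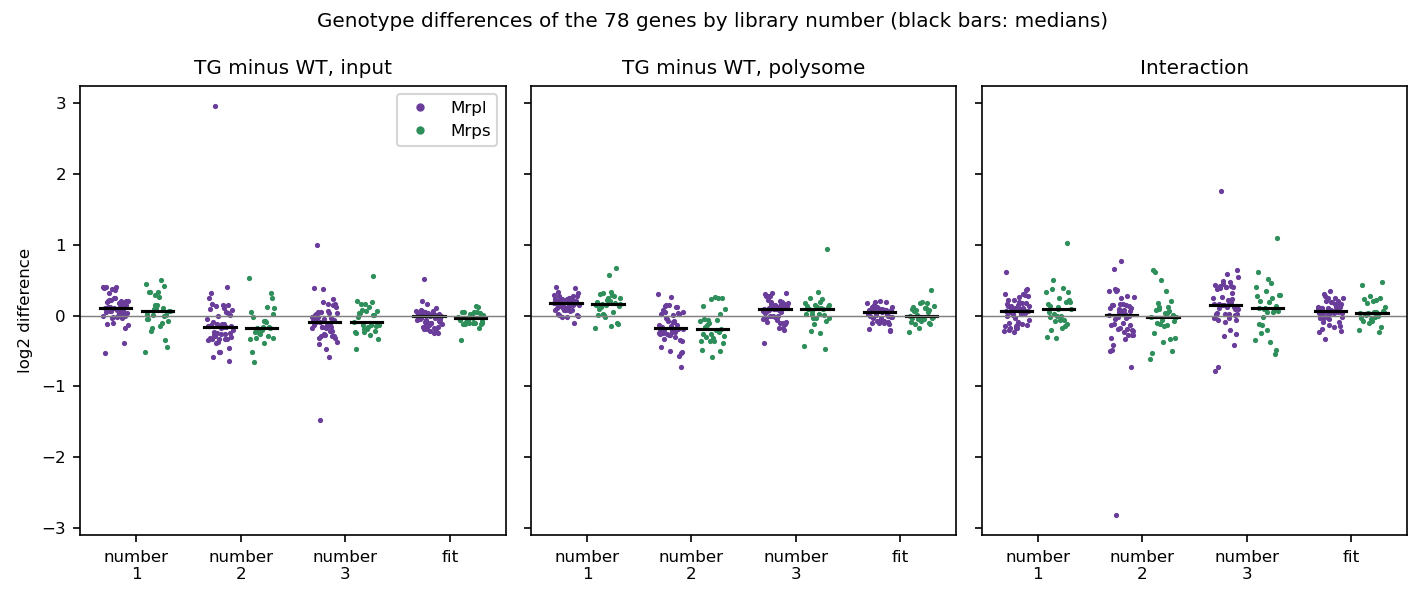
Log2 differences of the 78 genes (vertical axis) between TG and WT in input, in polysome RNA and as the interaction, for each library number and for the fit, Mrpl in purple and Mrps in green, with black bars at the family medians. The medians change sign between numbers in both RNAs, with 0.16 in number 1 and -0.18 in number 2 of the polysome libraries over all members.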

How the data were processed

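RNA of 12 libraries was sequenced after a stranded total RNA kit, per the labels' protocols. The submitters' processing notes name Salmon 1.1.0, R 3.6.2, DESeq2 1.26.0 and GRCm38, and for the annotation and the scaling model nothing is given in the sources used here. The deposited signal per gene is the authors' normalized read estimate, 1 column per library, and is not a raw count. The value of 1 read, estimated from low values, was 1.26 to 1.82 (input) or 0.613 to 0.846 (polysome). Of the low values checked in a library, only 33.0% to 46.1% lay within 0.1 read of whole. The depth is therefore approximate, and no count model was used.

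Genes with a value of 10 or more in at least 3 fitted libraries were tested on log2(value + 1) with limma 3.58.1 (variance trend, R 4.3.3) and Benjamini-Hochberg adjustment over all of them, with a threshold of 0.05. Fold changes on this scale understate changes of low genes. Polysome against input and the interaction used all 12 libraries, and each genotype comparison its 6. The script was tested on simulated data. Tables and figures used Python 3.11.15, pandas 2.3.3 and matplotlib 3.10.9. Gene models came from GENCODE M21, which matched 21465 of 21492 gene identifiers.

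Libraries with the same number deviated together: 18 same-number correlations were 0.24 to 0.55, and all 12 libraries matched their own number best. What a number stands for is left unsaid in the labels. The block was the number within a genotype for polysome against input and the interaction, and the number itself for the genotype comparisons. Members named were the 8 largest called rises and falls of either genotype, the 4 smallest p-values of each genotype comparison, the 5 highest and 5 lowest levels, and the 3 largest and 3 smallest spreads; from each companion list, the largest called rise and fall in WT or else the smallest p. The members and lists were chosen with earlier results of these data known. The result of 1 marker list is not reported here. Alternatives were scaling by a trimmed mean of log ratios (TMM), the filter, the pseudocount, the variance trend, the fitted libraries, the replicate block, exonic length, shared sequence, subunit by position and each library left out.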

Additional observations from a re-analysis of the deposited data

Results flagged for a closer look

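In 2 members every library number moved one way with the transgene in input and the opposite way in polysome RNA. The share of all genes with this pattern was not counted, so the 2 are given as values only. Mrpl39, a large subunit protein found only in mitochondrial ribosomes, was lower in TG input (log2 difference -0.10, below 0 in 3 of 3 numbers) and higher in TG polysome RNA (0.0932, above 0 in 3 of 3). Its values were 1045, 1220 and 995 in WT input, 1038, 1101 and 905 in TG input, 1255, 1403 and 1171 in WT polysome RNA and 1422, 1417 and 1243 in TG polysome RNA. The test of the difference itself, the interaction, gave 0.19 ± 0.21 (adjusted p = 1.00, limma).

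Mrps14 stood at -0.35 in input and 0.0917 in polysome RNA, again with 3 of 3 numbers on each side. The interaction was 0.44 ± 0.54 (adjusted p = 1.00, limma), and number 1 gave only 0.06 where numbers 2 and 3 gave 0.65 and 0.61.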

How the results depend on the processing

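In the genotype comparisons and the interaction 0 members passed in every alternative run, while over all genes some fits made calls, at most 29 higher and 60 lower, for polysome RNA in the block fit without number 3. In WT, 23 members passed; 12 passed without a variance trend, 12 with the trend on exonic length removed, and 2 to 28 with a library left out. In TG, 33 passed; 16 passed in the 6 TG libraries alone and 7 to 35 with a library left out. The replicate block gave 38 in WT. Without number 2 that block fit, chosen after seeing the data, gave 0 in WT and 11 in TG. Other alternatives stayed within 1.5 times.

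The Mrpl minus Mrps median was 0.05 in WT and 0.09 in TG. It was -0.12 and -0.10 with the length trend removed, 0.00585 and 0.0283 without members sharing over 50% of their sequence, and 0.00491 and -0.0145 with subunits by position. With a library left out it was -0.0153 to 0.11 in WT and -0.0283 to 0.15 in TG. In the replicate block fits it was -0.0125 in WT without number 1, and 0.15, 7.5e-05 and -0.011 in TG without numbers 1, 2 and 3. The cause was not tested.

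Of 9 rises named in WT, 8 were lost without WT input 3, WT polysome 2 or WT polysome 3, and Mrpl28 was kept. Of 8 in TG, 5 were lost without TG polysome 1, and Mrps14, Mrpl28 and Mrpl21 were kept without any library. No named member changed direction.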
